A study of Mus musculus with 4 samples.

Results

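The genes described here are 36 mouse genes of protein folding in the endoplasmic reticulum (ER) and of the unfolded protein response, measured by RNA sequencing in the liver of hemojuvelin knockout mice and wild type mice. They were listed by name, and every assembled locus that overlaps one of their exons in the GRCm38 annotation was looked up in each library. That gave 69 and 48 loci in knockout replicates 1 and 2, of 56237 and 30190 loci in all, against 52 and 54 loci in wild type replicates 1 and 2, of 41541 and 26238. Of 11515 genes with a usable value in any library, 7945 had one in all 4 and passed the filter on low values, and these include 35 of the 36. Derl3 was the exception.

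The knockout group comprised 2 liver libraries from male mice homozygous for a disrupted Hjv gene on a C57/BL6 background, and the wild type group 2 libraries from C57BL/6 males. Hemojuvelin is a coreceptor for bone morphogenetic proteins that drives transcription of the iron hormone hepcidin in hepatocytes. Both groups were moved at 5 weeks of age to an AIN-93G diet low in iron, at 2.5 mg per kg, kept on it for 50 days and sampled at 12 weeks, so no library shows either genotype on an iron-sufficient diet. The labels name no tissue-specific deletion, and they give mice per group without tying a library to a mouse, so p-values measure the spread between libraries, which may be technical. All values are scaled FPKM, fragments per kilobase of transcript relative to library depth, after scaling the libraries to a common median ratio.

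The lumen of the ER is where secreted and membrane proteins fold, and hepatocytes, which secrete most plasma proteins, carry a large load of this work. When unfolded proteins accumulate, the sensors IRE1 (gene Ern1), ATF6 and PERK (gene Eif2ak3) are activated. IRE1 splices the mRNA of the transcription factor XBP1, ATF6 is cut to release another transcription factor, and PERK phosphorylates the initiation factor eIF2alpha. XBP1 and cleaved ATF6 raise transcription of chaperones, disulfide isomerases and degradation factors through short promoter elements. FPKM values per gene show neither XBP1 splicing nor ATF6 cleavage nor PERK activity.

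The best known of these elements is the ER stress response element, ERSE, which reads CCAAT and, after 9 free bases, CCACG. A shorter form, ERSE-II, reads ATTGG and, after 1 free base, CCACG. Promoters of 31 of the 36 genes were taken from RefSeq for build GRCm38.p6, from 250 bases before to 50 bases after the start of transcription. They were searched on both strands for exact matches only. Variants of an element that differ by a letter were not counted. ERSE was found in 10 of the 31 promoters (32.3%), against 39 of 32851 promoters of all genes (0.119%). These elements are shown because they are the sequences through which the family is known to be induced together. Capitals mark the fixed letters of the element, the sequences run 5′ to 3′ on the strand of the gene, and CGTGG before ATTGG is the element on the opposite strand.
Hspa5: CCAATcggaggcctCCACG
Hsp90b1, distal copy: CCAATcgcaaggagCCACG
Hsp90b1, proximal copy: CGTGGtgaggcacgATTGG
Calr: CGTGGtcgaccctcATTGG
Canx: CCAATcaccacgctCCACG
Creld2: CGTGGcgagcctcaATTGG
Dnajc3: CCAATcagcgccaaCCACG
Pdia6: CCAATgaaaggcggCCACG
Syvn1: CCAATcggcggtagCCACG
Ero1lb: CGTGGtcccgcctcATTGG
Derl3: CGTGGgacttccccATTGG

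Nearest to the start of transcription was the copy of Syvn1, whose first base lies at -44, and farthest was the distal copy of Hsp90b1, at -212, counted from the RefSeq start. The copy of Hspa5 begins at -65, at chr2:34772025-34772043 on the plus strand, and that of Creld2 at -126, at chr15:88819520-88819538. ERSE-II was found in 2 of the 31 promoters (6.45%), against 12 of 32851 (0.0365%). It reads ATTGGcCCACG in Dnajb11, where its first base lies 8 bases into the transcript, and ATTGGgCCACG in Herpud1, where it begins at -52. An exact match of another element, UPRE, TGACGTGG, was in 0 of the 31 promoters and in 222 of 32851 (0.676%). No promoter of the 31 held more than 1 kind of element, so none overlapped. A match of letters is a description of the window and does not show that a factor binds there. The 250 bases before the start of Hspa5 (chr2:34771840-34772089, plus strand) and of Herpud1 (chr8:94386179-94386428, plus strand) show the elements in place, again in capitals.
Hspa5: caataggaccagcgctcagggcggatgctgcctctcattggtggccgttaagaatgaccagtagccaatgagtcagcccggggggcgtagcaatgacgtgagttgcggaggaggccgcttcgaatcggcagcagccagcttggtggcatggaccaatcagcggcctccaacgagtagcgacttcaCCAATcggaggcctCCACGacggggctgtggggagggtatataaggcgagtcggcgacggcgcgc
Herpud1: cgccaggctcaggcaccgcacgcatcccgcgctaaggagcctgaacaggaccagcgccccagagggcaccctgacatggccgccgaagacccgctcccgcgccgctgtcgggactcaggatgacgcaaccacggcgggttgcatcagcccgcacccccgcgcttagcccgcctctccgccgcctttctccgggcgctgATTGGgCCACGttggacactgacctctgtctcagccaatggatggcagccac

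**Figure D1:**
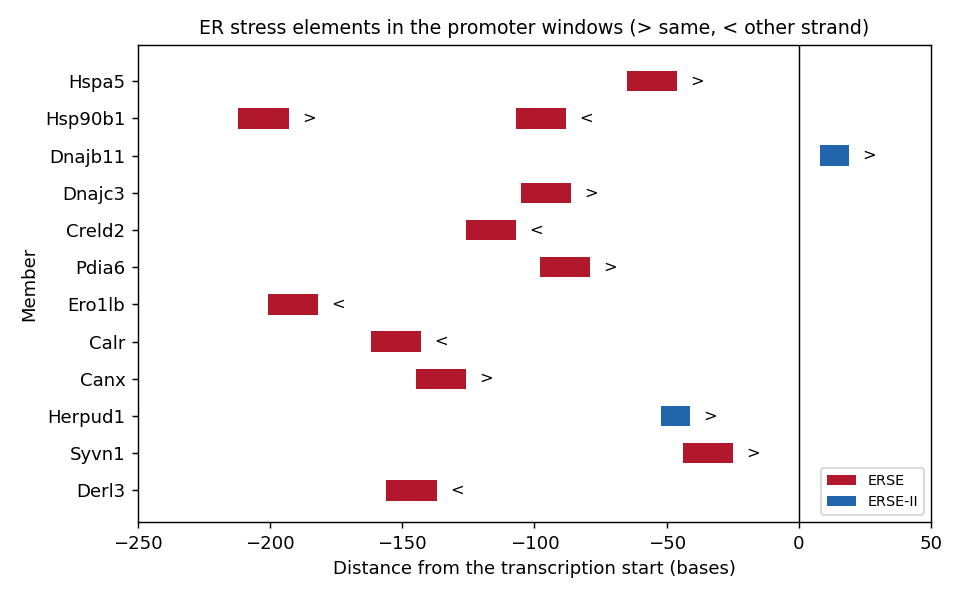
Position of each ERSE and ERSE-II match in the promoters of the ER folding genes, in bases from the RefSeq start of transcription (horizontal axis), 1 row per gene. The ERSE copies begin between -212 and -44, and the ERSE-II copy of Dnajb11 begins after the start.

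The libraries differ in ways that touch every value below. Depth recovered from the confidence bounds was about 55 and 132 M fragments in knockout replicates 1 and 2, against 87 and 51.3 M in wild type replicates 1 and 2. Knockout replicate 1 was assembled in the most pieces, with 2.15 loci per gene against 1.48 to 1.88 in the other 3, and 38.5% of its loci were 150 to 250 bases long, against 4.48% to 21.3%. Knockout replicates differed more from each other (SD of log2 differences 0.651 over all genes tested) than wild type replicates (0.421). The FPKM of an ER folding gene's main locus exceeded its own upper confidence bound in 21 and 10 of 36 genes in knockout replicates 1 and 2. In wild type replicates 1 and 2 it did so in 19 of 35 and 20 of 36. The median ratio of that FPKM to the midpoint of its bounds was 1.051 and 0.996 in knockout, against 1.055 and 1.074 in wild type. The targeted gene, annotated as Hfe2, had no locus in knockout replicate 1 and 0.237 in knockout replicate 2, against 9.22 and 29.6 in wild type replicates 1 and 2. Of 11 hepatocyte markers, 9 had a locus in knockout replicate 1 and 8 in knockout replicate 2, against 9 in each wild type library. Albumin and Serpina1a had none in any library, and Cyp2e1 had none in knockout replicate 2. The markers measured summed to 20500 and 13800 in the knockout libraries, against 15900 and 17800 in the wild type libraries.

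Most of the ER folding genes were measured at a lower level in knockout liver. Of the 35 tested, 29 had a negative log2 difference, against 47.9% of all 7945 genes. The median difference was -0.40 on the log2(scaled FPKM + 1) scale, against 0.02 over all genes. Both knockout libraries lay below both wild type libraries for 19 of the 35 (54.3%; 23.8% of all genes did so), and above both for 2 (5.71%; all genes, 22.3%). In either direction the groups were separate for 46.1% of all genes. None of these differences passed the adjusted threshold of 0.05 in limma, where 0% of all genes passed, and the smallest adjusted p of a member was 0.403. At an unadjusted p under 0.05, 8 of the 35 were lower and 0 higher, and 5.31% of all genes were lower and 5.81% higher. An exact permutation test of 2 against 2 libraries cannot give a p under 0.333. In whole liver, fewer cells of a type and less RNA per cell cannot be told apart.

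In each knockout library most of the 35 genes were measured below the wild type mean. There were 29 in knockout replicate 1, with a median log2 difference of -0.452, and 27 in knockout replicate 2, with a median of -0.261. The same counts over all genes were not made, so no background stands beside them. The 35 genes summed to 2220 and 2780 in the knockout libraries, against 3610 and 3730 in the wild type libraries. On the deposited FPKM scale, without scaling between libraries, the median of all genes moved to 0.19 and that of the 35 to -0.19. There 13 of the 35 lay below and 6 above, where 731 of all genes lay below and 2847 above, against 1891 and 1771 on the scaled values. Unadjusted calls also depended on single libraries: between 1 (without wild type replicate 2) and 14 (without knockout replicate 2) of the 35 were lower, with 2 without wild type replicate 1 and 6 without knockout replicate 1. Of the 8 genes, Calr passed in 10 of 20 alternatives and the other 7 each in 15 to 18 of the 19 or 20 that tested them.

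**Figure D2:**
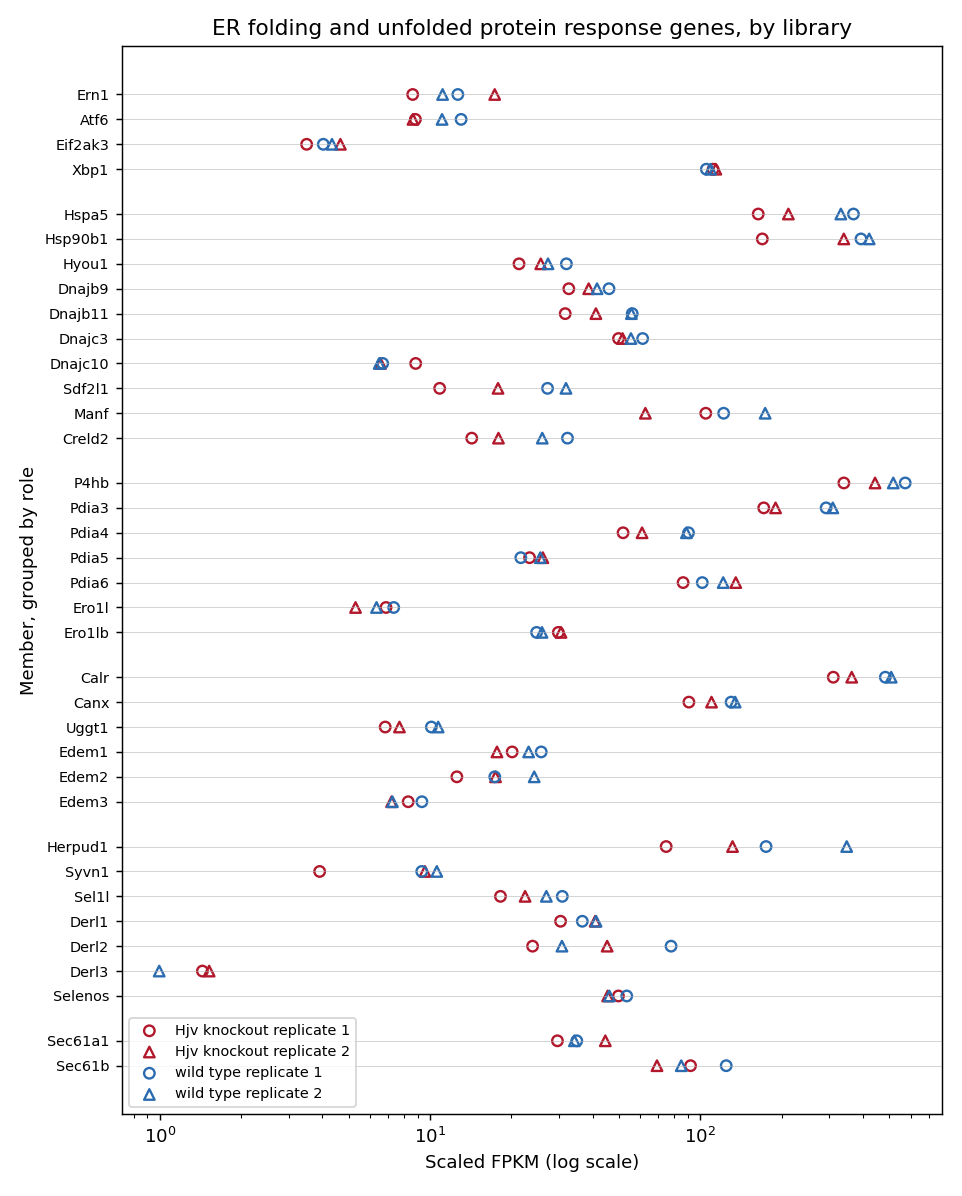
Scaled FPKM (log axis) of the 36 ER folding genes in each library, ordered by role, with knockout libraries shown before wild type libraries. In 19 of the 35 tested genes both knockout points lie below both wild type points, and in Xbp1 and Ero1lb above them. Derl3, which was not tested, has both knockout points above its only wild type point.

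The 3 sensors and Xbp1 had a median log2 difference of 0.0035, with 1 gene below and 1 above (25% each, against 23.8% and 22.3% of all genes). The knockout libraries were opposed here, since the median was 0.11 without knockout replicate 1 and -0.31 without knockout replicate 2. On the deposited scale it was 0.18. Ern1 measured 8.63 and 17.3 in knockout livers, against 12.7 and 11.1 in wild type livers, so the knockout libraries lay on either side of both wild type values (log2 difference 0.05 ± 0.35 SE, adjusted p = 0.972). Atf6 measured 8.83 and 8.65 in knockout livers, against 13.0 and 11.1 in wild type livers. It was the only sensor with both knockout values below both wild type values (-0.42 ± 0.19, adjusted p = 0.490). Eif2ak3 measured 3.50 and 4.66 in knockout livers, against 4.03 and 4.34 in wild type livers, with overlapping groups (-0.04 ± 0.21, adjusted p = 0.958). Xbp1 measured 111 and 114 in knockout livers, against 105 and 109 in wild type livers. Its groups did not overlap, but the difference was smaller than its error (0.07 ± 0.18, adjusted p = 0.889).

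The chaperones of the HSP70 and HSP90 system showed the lower level most often. Of the 10 genes, 9 had both knockout values below both wild type values and 0 above (90% and 0%, against 23.8% and 22.3% of all genes). The median log2 difference was -0.69. Without scaling 5 lay below and 1 above, on the scale where fewer of all genes also lay below, as counted above. After a correction for GC content 6 lay below and 1 above. Counts over all genes after that correction are not given here. Without knockout replicate 1 the median was -0.35. The 10 genes summed to 607 and 813 in knockout livers, against 1140 and 1170 in wild type livers. Hspa5 encodes BiP, the HSP70 of the ER lumen, which binds unfolded chains and holds the sensors inactive. It measured 164 and 212 in knockout livers, against 368 and 331 in wild type livers, averaging 187.7 ± 33.9 in knockout and 349.7 ± 26.5 in wild type (SD, n = 2 each). Its mean was thus 46.3% lower in knockout livers, and the log2 difference of -0.90 ± 0.22 SE had an adjusted p of 0.403 in limma. It ranked 206 by unadjusted p among the 7945 genes. The value of knockout replicate 1 includes a small locus of 2.71 FPKM beside the main locus of 234 FPKM, and with the highest locus alone the log2 difference was -0.77. Hspa5 lies at chr2:34771970-34777547 (ENSMUSG00000026864.13, plus strand, GRCm38).

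Hsp90b1 encodes GRP94, the HSP90 of the ER, and measured 170 and 339 in knockout livers, against 393 and 421 in wild type livers. The groups did not overlap, but its difference of -0.76 ± 0.37 (adjusted p = 0.508) rested on knockout replicate 1, since without that library it was -0.26. Sdf2l1, a partner of the DNAJB11 and BiP complex, measured 10.9 and 17.8 in knockout livers, against 27.2 and 31.8 in wild type livers, a mean 51.4% lower (-1.03 ± 0.28, adjusted p = 0.420). Its difference was -0.69 without knockout replicate 1 and -1.36 without knockout replicate 2. Creld2, an ER stress protein that can be secreted, measured 14.3 and 17.9 in knockout livers, against 32.2 and 26.0 in wild type livers (-0.82 ± 0.22, adjusted p = 0.420). In knockout replicate 1 it was assembled as 2 loci of 3.27 and 30.6 FPKM, and with the highest locus alone the difference was -0.42 and no longer passed the unadjusted threshold of 0.05. Manf, a secreted ER stress protein that binds BiP, measured 105 and 62.6 in knockout livers, against 122 and 174 in wild type livers (-0.84 ± 0.34, adjusted p = 0.459). The lower value of knockout replicate 2 comes from averaging its main locus of 99.7 FPKM with a locus of 0.170 FPKM, and wild type replicate 1 likewise averages 151 FPKM with 0.793 FPKM. With the highest locus alone the difference was -0.67 and passed the unadjusted threshold of 0.05. In these genes every knockout value was under every wild type value.

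The cochaperones of the J domain family, which deliver clients to BiP and stimulate its ATPase, differed in size. Dnajb11 measured 31.6 and 41.1 in knockout livers, against 56.0 and 55.6 in wild type livers (-0.62 ± 0.21, adjusted p = 0.438). Its value in knockout replicate 1 averages a main locus of 49.2 FPKM with a locus of 2.66 FPKM. Wild type replicates 1 and 2 likewise average 65.7 and 66.7 FPKM with 0.924 and 0.907 FPKM. Knockout replicate 2 has its main locus of 39.2 FPKM alone, since the other lay mostly outside the gene. Dnajb9 measured 32.6 and 38.6 in knockout livers, against 45.9 and 41.5 in wild type livers. Dnajc3, also called P58IPK, measured 49.8 and 51.6 in knockout livers, against 61.2 and 55.4 in wild type livers. All 3 had groups that did not overlap, although the difference of Dnajc3 turned to 0.0086 on the deposited scale. Dnajc10, a J protein that reduces disulfide bonds for degradation, was the exception among the 10 genes, at 8.85 and 6.56 in knockout livers, against 6.68 and 6.48 in wild type livers. Hyou1, the large HSP70 relative that exchanges nucleotide on BiP, measured 21.3 and 25.7 in knockout livers, against 31.9 and 27.3 in wild type livers.

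**Figure D3:**
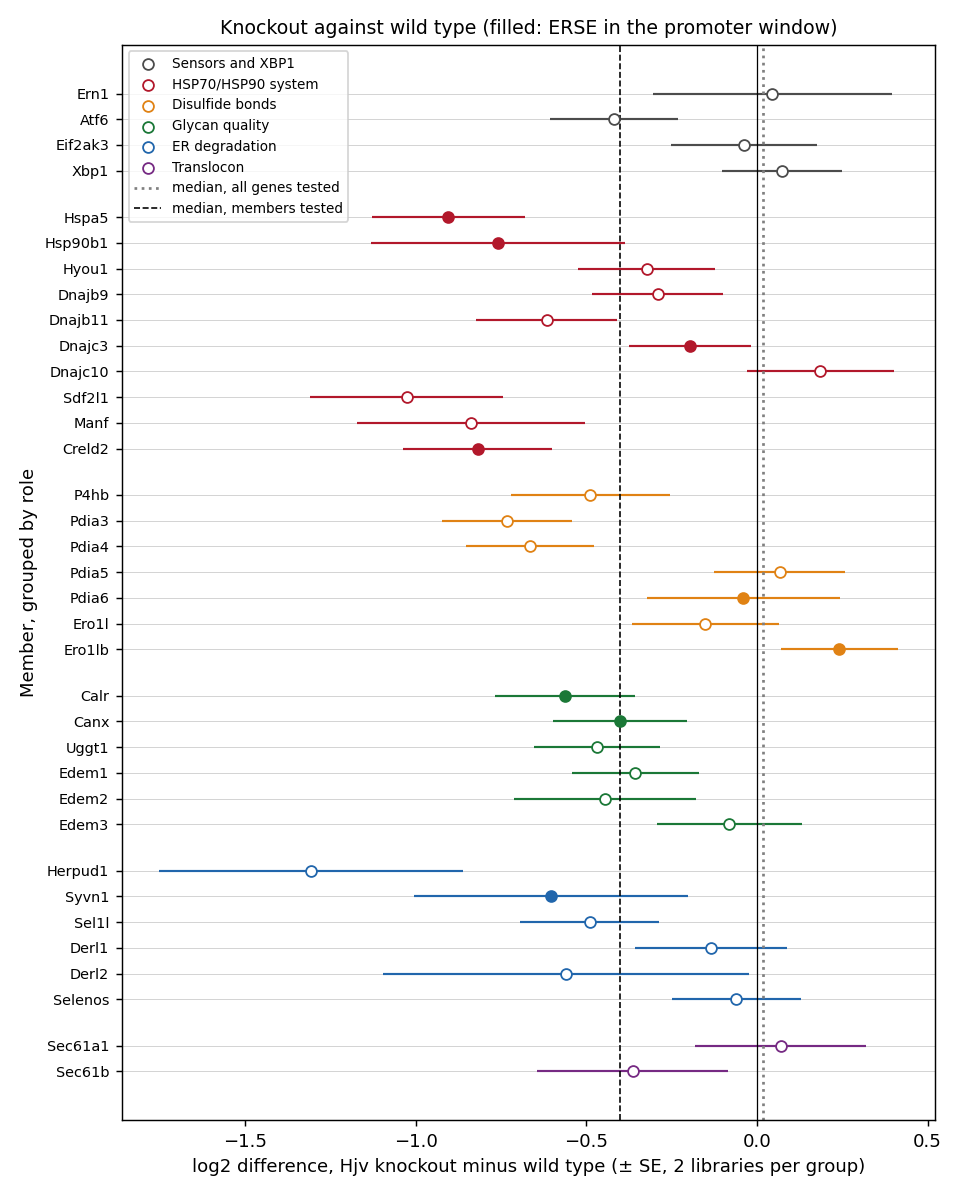
Log2 difference, knockout minus wild type, of each tested ER folding gene with its standard error, grouped by role, beside the median of all genes tested. Of the 10 chaperones 9 lie below 0, with Sdf2l1 at -1.03 the lowest of them, and Herpud1 at -1.31 is the lowest of all 35.

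Disulfide bonds in the ER are made by the oxidases ERO1 and passed to clients by protein disulfide isomerases. Of these 7 genes, 3 isomerases had both knockout values below both wild type values, 1 oxidase had them above (42.9% and 14.3%, against 23.8% and 22.3% of all genes), and the median log2 difference was -0.15. The median was 0.032 on the deposited scale, -0.054 after the GC correction, -0.24 when wild type replicate 2 was left out, and -0.30 and -0.36 when knockout replicates 1 and 2 were left out in turn. Pdia3 encodes ERp57, which works with calnexin and calreticulin on glycoproteins. It measured 172 and 190 in knockout livers, against 292 and 309 in wild type livers, averaging 180.7 ± 12.8 in knockout and 300.5 ± 12.1 in wild type (SD, n = 2 each). That is 39.9% lower in knockout (-0.73 ± 0.19, adjusted p = 0.420). Pdia4, which encodes ERp72, measured 51.8 and 60.9 in knockout livers, against 90.4 and 88.8 in wild type livers (-0.67 ± 0.19, adjusted p = 0.421). P4hb, which encodes the classical isomerase PDI and had the highest level of the 35 genes in both groups, measured 340 and 443 in knockout livers, against 573 and 517 in wild type livers (-0.49 ± 0.23, adjusted p = 0.506).

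The groups were not separate for the other isomerases. Pdia5 measured 23.3 and 26.1 in knockout livers, against 21.7 and 25.6 in wild type livers. Pdia6, which encodes P5, measured 86.3 and 135 in knockout livers, against 102 and 121 in wild type livers. For both genes the groups overlapped, and the log2 difference, 0.07 for Pdia5 and -0.04 for Pdia6, turned sign after a GC correction, to -0.020 and 0.021. Of the oxidases, Ero1l measured 6.87 and 5.30 in knockout livers, against 7.34 and 6.34 in wild type livers, with overlapping groups. Ero1lb measured 29.8 and 30.5 in knockout livers, against 24.8 and 25.9 in wild type livers. It was the only gene beside Xbp1 with both knockout values above both wild type values, and its log2 difference was 0.24 (adjusted p = 0.604).

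Glycoproteins are held in the ER by the lectins calreticulin and calnexin until their glycan is trimmed, UGGT1 puts glucose back on chains that are still unfolded, and the EDEM proteins lead chains that fail to fold to degradation. All 6 genes of this cycle had a negative log2 difference, with a median of -0.42. In 4 of them both knockout values lay below both wild type values (66.7%, against 23.8% of all genes). Calr measured 310 and 363 in knockout livers, against 483 and 508 in wild type livers, 32.1% lower in the mean (-0.56 ± 0.21, adjusted p = 0.443). It passed the unadjusted threshold of 0.05 in 10 of 20 alternatives and lost it in the other 10, among them the deposited scale, the replicate block and leaving out either wild type library or knockout replicate 1. Canx measured 90.7 and 110 in knockout livers, against 130 and 135 in wild type livers. Uggt1 measured 6.83 and 7.71 in knockout livers, against 10.1 and 10.7 in wild type livers (-0.47 ± 0.18, adjusted p = 0.455). Edem1 measured 20.1 and 17.7 in knockout livers, against 25.8 and 23.2 in wild type livers, and its groups did not overlap. Edem2, at 12.6 and 17.5 in knockout livers against 17.4 and 24.3 in wild type livers, overlapped by a narrow margin. Edem3, at 8.30 and 7.20 in knockout livers against 9.33 and 7.26 in wild type livers, overlapped as well, and its difference of -0.08 turned to 0.024 after the GC correction.

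ER-associated degradation moves failed proteins back to the cytosol for the proteasome. All 6 tested genes had a negative log2 difference, with a median of -0.52. Both knockout values lay below both wild type values in 2 of them, Herpud1 and Sel1l (33.3%, against 23.8% of all genes). The median was -0.12 without knockout replicate 1, -0.31 without wild type replicate 1 and -0.82 without knockout replicate 2. Herpud1 encodes HERP, a membrane protein that organizes the ubiquitin ligase HRD1. It measured 74.7 and 132 in knockout livers, against 175 and 348 in wild type livers, 60.6% lower in the mean and with the largest difference of the 35 genes (-1.31 ± 0.45, adjusted p = 0.440). The difference depended on which library was used, since it was -0.81 without wild type replicate 2 and -0.90 without knockout replicate 1, and in neither case did it pass the unadjusted threshold of 0.05. In wild type replicate 2 the locus was deposited at 318 FPKM with confidence bounds of 198 and 212, and with midpoints of the bounds in place of the FPKM of every locus the difference was -0.93. Sel1l, the adaptor of HRD1, measured 18.2 and 22.5 in knockout livers, against 30.8 and 26.9 in wild type livers (-0.49 ± 0.20, adjusted p = 0.468).

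Other degradation genes overlapped between the groups. Syvn1, which encodes HRD1 itself, measured 3.90 and 9.57 in knockout livers, against 9.32 and 10.6 in wild type livers, so that knockout replicate 1 alone was low. Its log2 difference was -0.60, and -0.05 without that library. Derl1, a derlin that forms part of the exit channel, measured 30.4 and 40.8 in knockout livers, against 36.6 and 41.1 in wild type livers. Derl2 measured 24.0 and 45.2 in knockout livers, against 77.9 and 30.8 in wild type livers, so wild type replicate 1 alone was high, and without it the log2 difference turned to 0.10. Selenos, a selenoprotein of the same complex, measured 49.8 and 45.4 in knockout livers, against 53.4 and 46.0 in wild type livers. Derl3, another derlin, measured 1.44 and 1.52 in knockout livers, the first over less than 50% of a transcript, against 0.995 in wild type replicate 2, while wild type replicate 1 gave no locus for it. The lack of a locus does not show that Derl3 was silent, and it was not tested.

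The SEC61 channel brings new chains into the ER. Its 2 listed subunits had overlapping groups. Sec61a1, the pore subunit, measured 29.6 and 44.5 in knockout livers, against 34.9 and 34.2 in wild type livers. Sec61b, a small subunit, measured 92.0 and 69.1 in knockout livers, against 125 and 85.0 in wild type livers, and its main locus was deposited at 1.47 to 2.22 times the midpoint of its own confidence bounds in the 4 libraries.

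Genes with an ERSE and genes without one were both found among the lower genes. Of the 9 tested genes with an ERSE, 6 had both knockout values below both wild type values and 1, Ero1lb, above, with a median log2 difference of -0.56. Of the 21 tested genes with a RefSeq promoter and no exact match of ERSE, 10 lay below and 1 above, with a median of -0.36. Both tested genes with an ERSE-II, Dnajb11 and Herpud1, lay below. Among genes outside the list, 5 tested genes have an ERSE, and 1 of these lay below and 2 above, with a median of 0.28. Over all genes tested, 23.8% lay below and 22.3% above. No test was made of the differences between these groups of genes.

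Over the 35 genes the order of levels was much the same in the 2 groups. P4hb, Calr, Hsp90b1, Hspa5 and Pdia3 held the first 5 places in knockout livers and in wild type livers, and Eif2ak3 the last. In knockout livers Hsp90b1 (254.4 ± 120.1) and Hspa5 (187.7 ± 33.9) did not differ beyond their spread, nor did Hspa5 and Pdia3 (180.7 ± 12.8; SD, n = 2 each). Xbp1 held place 6 in knockout livers, against place 10 in wild type livers, and Herpud1 place 8 against place 6.

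**Figure D4:**
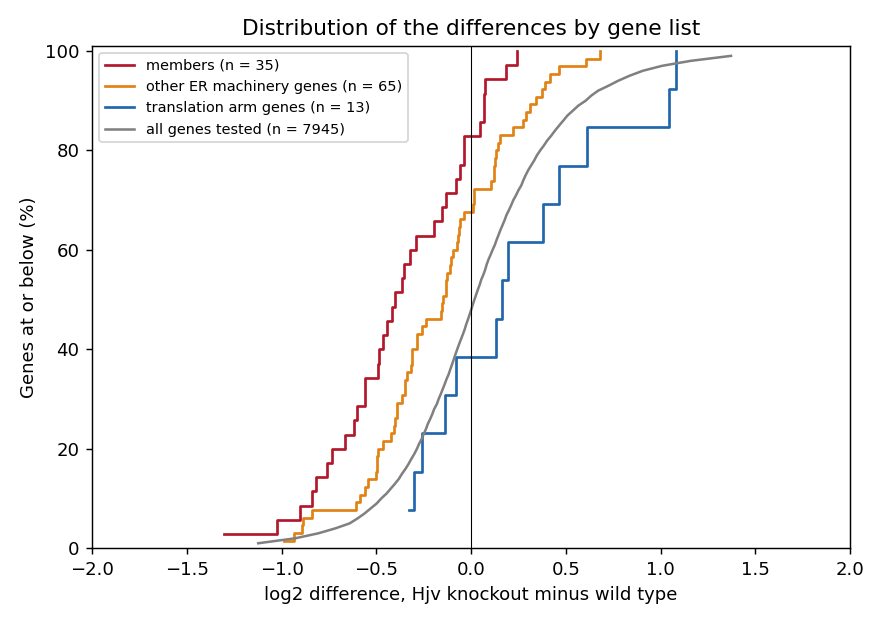
Cumulative share of genes (vertical axis, percent) by log2 difference, knockout minus wild type (horizontal axis), for the ER folding genes, the 2 lists of pathway partners and all 7945 genes tested. The curve of the ER folding genes lies to the left, with its median at -0.40 against 0.02 for all genes, and the median of the translation arm is 0.16.

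The rest of the ER machinery, a list of 71 other genes of translocation, glycosylation, folding, export and ER stress of which 65 were tested, was lower more often than higher but by less. In 29 of the 65 both knockout values lay below both wild type values and in 3 above (44.6% and 4.62%, against 23.8% and 22.3% of all genes). The median log2 difference was -0.15. On the deposited scale the counts were 14 and 16 and the median 0.044, where fewer of all genes also lay below and more above. Leaving out 1 library gave 35 to 41 below and 8 to 17 above. Groups separate more easily with fewer libraries, for any gene, so these counts do not compare with those from all libraries. At an unadjusted limma p under 0.05, 7 of the 65 were lower and 0 higher, and 0 passed adjustment. Sec11c, a catalytic subunit of the signal peptidase, measured 15.9 and 17.8 in knockout livers, against 29.6 and 39.8 in wild type livers (-0.99 ± 0.22, adjusted p = 0.403). Erlec1, a lectin of ER degradation, measured 10.2 and 14.9 in knockout livers, against 25.9 and 21.7 in wild type livers. Dnajc1, an ER membrane J protein, measured 4.10 and 5.15 in knockout livers, against 12.5 and 7.56 in wild type livers. Those 3 had groups that did not overlap. On the higher side Dad1, a subunit of the oligosaccharyltransferase, measured 58.5 and 87.2 in knockout livers, against 47.6 and 55.5 in wild type livers. Mbtps1, the protease that cuts ATF6, measured 10.9 and 15.0 in knockout livers, against 8.22 and 11.0 in wild type livers. Ssr1, of the translocon-associated complex, measured 14.9 and 38.3 in knockout livers, against 15.9 and 13.4 in wild type livers. The last 2 had overlapping groups.

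The translation arm lies downstream of PERK and of the other eIF2alpha kinases. Of its 18 listed genes 13 were tested, 4 had both knockout values above both wild type values and 1 below (30.8% and 7.69%, against 22.3% and 23.8% of all genes), and the median log2 difference was 0.16. Without knockout replicate 2 the median was 0.032. On the deposited scale the counts were 7 and 0, where more of all genes also lay above and fewer below. After the GC correction they were 3 and 3, with a median of -0.08 and no counts over all genes given here. Atf4, the transcription factor whose translation rises when eIF2alpha is phosphorylated, measured 49.9 and 52.5 in knockout livers, against 40.3 and 33.6 in wild type livers (0.46 ± 0.19, adjusted p = 0.465). Atf5 measured 71.8 and 190 in knockout livers, against 59.99 and 50.01 in wild type livers, with knockout replicate 2 far above the other 3 libraries. Chac1, an ATF4 target that degrades glutathione, measured 1.55 and 3.49 in knockout livers, against 0.822 and 0.485 in wild type livers (1.04 ± 0.34, adjusted p = 0.432). Both wild type values of Chac1 were under 1 FPKM, so it passed the filter on low values only through the knockout libraries. Its p, and its place among the 4 genes above, are therefore no evidence of a difference. The groups of these 3 genes did not overlap. Subunits of the exchange factor eIF2B went both ways. Log2 differences were -0.26 for Eif2b5, -0.33 for Eif2b1 and -0.30 for Eif2b3, against 0.61 for Eif2b2 and 0.19 for Eif2b4. Among these subunits the groups were separate for Eif2b5, lower in knockout, and for Eif2b2, higher in knockout. Ddit3, which encodes CHOP, had no locus in knockout replicate 2 and was not tested.

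Other cell types, some of them rich in ER, were looked for by their markers. Of 6 pancreatic acinar markers, 5 had no locus in any library, and the remaining Cela1 measured 17.5 and 28.6 in knockout livers, against 26.6 and 27.0 in wild type livers. Of 5 B and plasma cell markers, 1 had a locus in knockout replicate 1 and 4 in knockout replicate 2, against 3 in each wild type library, and Mzb1 had none in any. Their sums were 4.84 and 3.29 in knockout livers, against 4.54 and 3.76 in wild type livers. The 6 Kupffer cell and macrophage markers summed to 67.7 and 92.3 in knockout livers, with no locus for Marco in the first, against 97.8 and 119 in wild type livers. Those macrophage sums were lower in knockout, as were the ER folding genes, and their part in the result was not tested. The 6 endothelial markers summed to 59.9 and 64.6 in knockout livers, against 49.9 and 61.4 in wild type livers. The 6 stellate cell and fibroblast markers summed to 90 and 72.6 in knockout livers, against 83.2 and 68.4 in wild type livers. For both types the groups overlapped. GC content followed the log2 difference over all genes with a Spearman correlation of 0.384 and over the 35 genes with -0.146, a description over genes that share the same 4 libraries. It also followed differences within a genotype. For knockout replicate 2 minus 1 the correlation was 0.478 over all genes and 0.341 over the 35 genes. For wild type replicate 2 minus 1 it was 0.263 over all genes. The median GC content was 49.1% in the 35 genes and 49.4% in all genes tested.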

How the data were processed

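Liver RNA libraries (TruSeq kit, HiSeq 2000, per the labels) were deposited as 1 table per library of loci, each with FPKM and lower and upper confidence bounds in FPKM, made by the authors with Cufflinks. FastQC, TopHat and Cufflinks are listed, with no version, in the submitters' processing notes, as is build mm9. The coordinates instead match GRCm38, since 13.6% to 33.4% of loci over 2000 bases end within 20 bases of a gene end in GENCODE M21 and 0.252% to 0.377% after a shift of 50000 bases. The loci were assembled separately per library and carry no gene names. Each locus was therefore given to a coding gene by position. The FPKM of all loci of a gene were averaged with their exonic bases as weights, and a gene was kept where 50% or more of a coding transcript lay within them. Loci whose FPKM exceeded 3 times their own bounds' midpoint were left out. Genes with a value in all 4 libraries and at least 1 FPKM in at least 2 were tested.

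Libraries were scaled by the median of ratios (factors 1.20 and 0.954 in knockout, 0.935 and 0.915 in wild type), and log2(value + 1) was tested with limma 3.58.1 in R 4.3.3, with a mean-variance trend, two-sided, with Benjamini-Hochberg adjustment over all 7945 genes. A difference on this scale understates the change of low genes. The pipeline was tested on simulated data. Depth came from the spacing of the confidence bounds of loci under 300 bases. Among such loci with low bounds, 99.9% of the bounds were whole multiples of 1 step, within a tolerance of 0.05 of a step. The step was fitted on loci of this kind, and depth is an estimate. Deviations from the group means correlated little between same-numbered replicates (0.0782), which cannot show whether the numbers pair samples. Loci of 150 to 250 bases made up 38.5% and 21.3% in replicate 1 of knockout and wild type. In replicate 2 they made up 4.48% and 4.49%, so a batch shared by replicate number was not excluded. All 36 members are named. Full statistics are given for Hspa5, Xbp1, the 3 sensors and the 12 other tested members with the smallest unadjusted p. In each partner list the 3 genes per direction with the smallest unadjusted p are named. In the translation arm Ddit3 and the other eIF2B subunits are named as well. The members and lists were chosen with earlier results of these data known. The promoter elements searched are textbook consensus letters and come from no deposited file.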

Additional observations from a re-analysis of the deposited data

How the results depend on the processing

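With 2 libraries per group, single libraries set most counts, and low depth in wild type replicate 2 and fragmented assembly in knockout replicate 1 limit single values. Of the 29 genes lower in knockout livers, 20 were lower in every one of 20 alternatives that tested them, and 2 (Xbp1 and Ero1lb) were higher in every one. The other filters on low values, limma without a trend or with robust moderation, and the replicate block leave every log2 difference unchanged. Signs under those alternatives were therefore fixed in advance. The block with GC correction likewise repeats the differences of the GC correction alone. Over the 35 genes, 608 values kept their sign and side of an unadjusted p of 0.05, 29 lost it, 17 gained it and 41 turned sign, these with unadjusted p between 0.097 and 0.99. The smallest adjusted p of a member under any alternative was 0.0726. For the causes of the changes below, the cause was not tested. On the deposited FPKM scale 1 gene of all was higher after adjustment, 866 were higher and 138 lower at an unadjusted p under 0.05 (462 and 422 on the scaled values), 4 members were lower at that p, 6 members lay above both wild type values and the median of the members was -0.19. With at least 5 FPKM, 291 genes of all were higher at an unadjusted p under 0.05. With every locus that overlaps an exon, 5 members were lower at that p and 1 lay above, and 1 lay above with the highest locus or a span of 25%. Leaving out 1 library at a time gave 0 to 364 genes of all higher and 1 to 132 lower after adjustment, 122 to 1308 higher and 129 to 797 lower without adjustment, and 1 to 14 members lower and 3 to 7 above. Groups separate more easily for any gene when 1 library is left out, so the counts above do not compare with those from all libraries. With the replicate block 7 members were lower at an unadjusted p under 0.05, against 8 without it. With the block and GC correction 9 were lower. The block cannot change a direction, since each replicate number holds 1 library of each group. With it 0 members passed adjustment. The correlation of same-numbered replicates was 0.0782.

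Signs turned on the deposited scale for Eif2ak3 (0.13), Dnajc3 (0.0086), Pdia6 (0.17), Ero1l (0.032), Edem3 (0.11), Derl1 (0.068) and Selenos (0.14), and with quantile normalization for Pdia6 (0.058) and Selenos (0.012). With the GC correction, with or without the replicate block, they turned for Pdia5 (-0.020), Pdia6 (0.021), Edem3 (0.024), Selenos (0.035) and Sec61a1 (-0.041). With the highest locus Edem3 turned (0.10), and with every overlapping locus Sel1l (5.03), where a 61-base locus of knockout replicate 1 carries a deposited FPKM of 20470500. With midpoints of the confidence bounds, an alternative chosen after seeing the data, Pdia5 (-0.020), Pdia6 (0.010) and Selenos (0.071) turned. Leaving out 1 library gave log2 differences of -0.42 to 0.51 for Ern1, -0.20 to 0.13 for Eif2ak3, -0.0046 to 0.38 for Dnajc10, -0.048 to 0.18 for Pdia5, -0.36 to 0.28 for Pdia6, -0.31 to 0.0092 for Ero1l, -0.24 to 0.081 for Edem3, -0.34 to 0.072 for Derl1, -1.22 to 0.097 for Derl2, -0.16 to 0.045 for Selenos and -0.22 to 0.36 for Sec61a1.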

Other observations

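The short element UPRE had no exact match in the promoters of the ER folding genes searched. It is held by the promoters of 66 other genes tested. Among these are the coat protein genes Copb1 and Copb2, the export genes Sec23a and Sec24d and the isomerase Txndc5. In 25 of the 66 both knockout values lay below both wild type values and in 5 above, where 23.8% and 22.3% of all genes did so, and the median log2 difference was -0.10. The ERSE-II, outside the list, is held by 6 genes tested, of which 2 lay below and 3 above. No test was made of these groups, which were formed after the data were seen.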
